A study of Mus musculus with 6 samples.

Results

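The amino acid transporters of the plasma membrane and lysosome in solute carrier families Slc1a, Slc3a, Slc6a, Slc7a, Slc36a, Slc38a and Slc43a were described across 3 groups of mice, in colon and in liver. Members were the probe sets of the array whose annotation gives exactly 1 gene symbol and whose symbol begins with 1 of these 7 family names followed by a number. The rule found 125 probe sets of 63 genes, among 34958 probe sets of 18194 genes with 1 symbol and 45101 probe sets in all. By family there were 7 genes in Slc1a, 2 in Slc3a, 21 in Slc6a, 16 in Slc7a, 5 in Slc36a, 9 in Slc38a and 3 in Slc43a. The pattern also took in 3 genes named for the strand opposite a carrier (Slc36a1os, Slc6a19os and Slc7a6os), which are not carriers, so 60 genes are carriers by symbol. Not every carrier moves amino acids, since Slc6a also holds the carriers of creatine, taurine and several neurotransmitters. Of the 63 genes, 31 had 1 probe set and 32 had several, up to 7.

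RNA was measured on Affymetrix Mouse Genome 430 2.0 arrays. Male mice, 7 weeks old and listed under the strain background C576B6/J, received either a basal diet and plain water (CON), or the basal diet with 1.5% (w/v) dextran sodium sulphate in the water after 7 days of plain water (DSS), or the same polymer after the same lead-in with a diet holding 2% parsley throughout (DSSPAR). Dextran sodium sulphate injures the colonic epithelium and brings on colitis. The sample labels put DSS mice on the polymer for 10 days and DSSPAR mice for 9, so diet and days of exposure cannot be told apart between these groups. RNA of 7 mice was pooled for each array and each group had 1 array per tissue, so there is no replicate check, no test was run and no SD between mice can be given.

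Carriers of the Slc7a family that work as light chains reach the membrane only when joined by a disulphide bond to a heavy chain of the Slc3a family, while the cationic carriers of Slc7a work alone. Carriers of Slc1a and Slc6a use the sodium gradient to concentrate their substrates, and Slc38a carriers move glutamine and other small neutral amino acids with sodium. Slc36a carriers are proton-coupled, and Slc43a1 and Slc43a2 let large neutral amino acids pass by facilitated diffusion. In colon these proteins serve the epithelium and the immune cells of the wall, and in liver they feed ureagenesis, gluconeogenesis, glutathione synthesis and the glutamine cycle between periportal and perivenous hepatocytes.

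Values are intensities on a linear scale in arbitrary units, given as CON, DSS and DSSPAR. An intensity depends on the probe set as well as on the transcript, so it gives no order of transcript levels between genes and served only to choose which member of a family to name. The floor for a tissue was the median intensity over its 3 arrays, 25.1 in colon and 96.6 in liver, and a value under it was raised to it for ratios, which makes a fold against such an array a lower bound. A gene was measured in a comparison where at least 1 of the 2 arrays lay above the floor, and was called higher or lower at a 2-fold difference, a log2 ratio of 1. Each gene was represented by its brightest probe set, ranked by mean log2 intensity in the tissue. The only internal error is the disagreement between probe sets of 1 gene: where a gene's 2 brightest probe sets were compared, their log2 ratios differed with a robust SD of 0.36 to 0.42 over the 3 comparisons in colon and 0.48 to 0.57 in liver. Variation from pool to pool or array to array is not in this figure. Array medians were 27.3, 25.7 and 22.5 in colon and 107, 96.7 and 86.5 in liver, while the median ratio over probe sets above the floor in all 3 arrays of a tissue lay between -0.04 and 0.01.

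In colon, 38 of the 63 genes lay above the floor in at least 1 array, against 66.5% of all genes, and in liver 44 did, against 73.2% of all genes. The genes above the floor were 34 in both tissues, 4 in colon alone (Slc1a1, Slc6a7, Slc6a20a and Slc7a14), 10 in liver alone (Slc1a2, Slc1a7, Slc6a3, Slc6a5, Slc6a12, Slc6a13, Slc6a18, Slc6a21, Slc7a3 and Slc38a4) and 15 in neither. The last 15 were Slc1a3, Slc1a6, Slc6a11, Slc6a15, Slc6a16, Slc6a20b, Slc7a10, Slc7a12, Slc7a13, Slc7a15, Slc36a2, Slc36a3, Slc38a5, Slc36a1os and Slc6a19os. They include the astrocyte carrier Slc1a3 and the GABA carrier Slc6a11, which are known from the nervous system. Below the floor a level was not measurable on these arrays, and absence cannot be read from it. Each tissue held the markers of its label: 17 of 17 absorptive colonocyte markers lay above the colon floor in CON, and 13 of 13 hepatocyte markers lay above the liver floor in all 3 arrays. In the other tissue, 10 of the 17 colonocyte markers lay above the liver floor in CON. Of the 13 hepatocyte markers, 5 lay above the colon floor in CON.

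**Figure D1:**
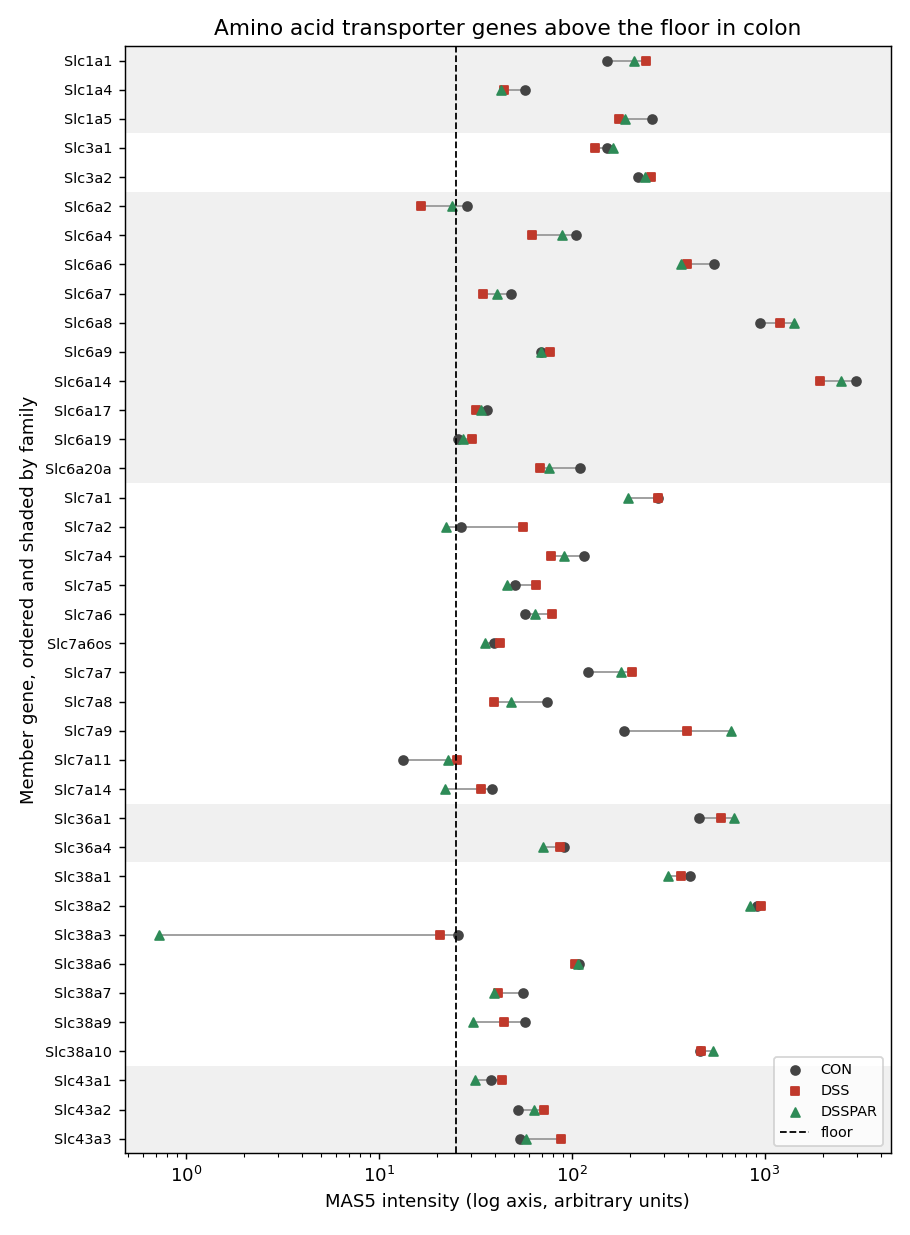
MAS5 intensity (log axis, arbitrary units) of the 38 member genes above the colon floor in at least 1 array, 1 point per array (circle CON, square DSS, triangle DSSPAR) with the floor of 25.1 dashed. Slc7a9 reads 186 in CON, 397 in DSS and 670 in DSSPAR, and Slc7a2 stands apart in DSS alone.

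In colon, 2 carriers were at least 2-fold higher in DSS than in CON, the cystine carrier Slc7a9 and the cationic carrier Slc7a2, and none was 2-fold lower. The 2 made 5.26% of the 38 members measured, against 5.18% of all genes 2-fold higher and 1.97% lower. In DSSPAR against DSS no member was 2-fold higher and 1 of 36 was 2-fold lower (Slc7a2, 2.78%), against 0.392% and 1.24% of all genes. In DSSPAR against CON 1 of 37 was 2-fold higher (Slc7a9, 2.7%) and none lower, against 3.51% and 2.1% of all genes. The shares called higher in DSS and in DSSPAR against CON lie near or under those of all genes. The members' median log2 ratio was -0.02, -0.11 and -0.15 in these comparisons, and 0.04, -0.01 and 0.03 over all genes. With each array centred on its own median, the members' medians turned positive (0.05, 0.08 and 0.06), and those of all genes moved to 0.12, 0.18 and 0.30, above the members' under either scaling. The same centring turned the calls of all genes in DSSPAR against DSS from 46 higher and 146 lower to 108 higher and 79 lower, and in DSSPAR against CON from 415 and 248 to 890 and 121.

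In liver, 5 of 43 members were at least 2-fold higher in DSS than in CON (11.6%, against 4.73% of all genes) and 1 was lower (2.33%, against 4.2%). The higher members were the heavy chain Slc3a1, the creatine carrier Slc6a8, the cationic carrier Slc7a1, the proton-coupled carrier Slc36a4 and the opposite-strand gene Slc7a6os, and the lower was Slc6a17. Without the opposite-strand genes 4 of 42 were higher. In DSSPAR against DSS, the glutamine carrier Slc38a3, the lysosomal carrier Slc38a9 and the light chain Slc7a7 were 2-fold higher and Slc6a8 was 2-fold lower, 3 and 1 of 40 (7.5% and 2.5%, against 2.8% and 4.23% of all genes). In DSSPAR against CON, Slc3a1, Slc7a1 and Slc36a1 were 2-fold higher and Slc6a17 was lower, 3 and 1 of 41 (7.32% and 2.44%, against 3.26% and 3.45% of all genes). The members' medians were -0.01, 0.10 and 0.11, and -0.02, -0.02 and -0.04 over all genes. Centring the arrays on their medians brought these to 0.22, 0.22 and 0.35 for members and to 0.12, 0.13 and 0.25 for all genes. The member calls in DSSPAR against CON then became 9 higher and 0 lower, and those of all genes went from 415 higher and 439 lower to 1007 and 188. For all genes the calls of DSS against CON went from 616 and 548 to 854 and 349, and those of DSSPAR against DSS from 347 and 525 to 674 and 332.

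**Figure D2:**
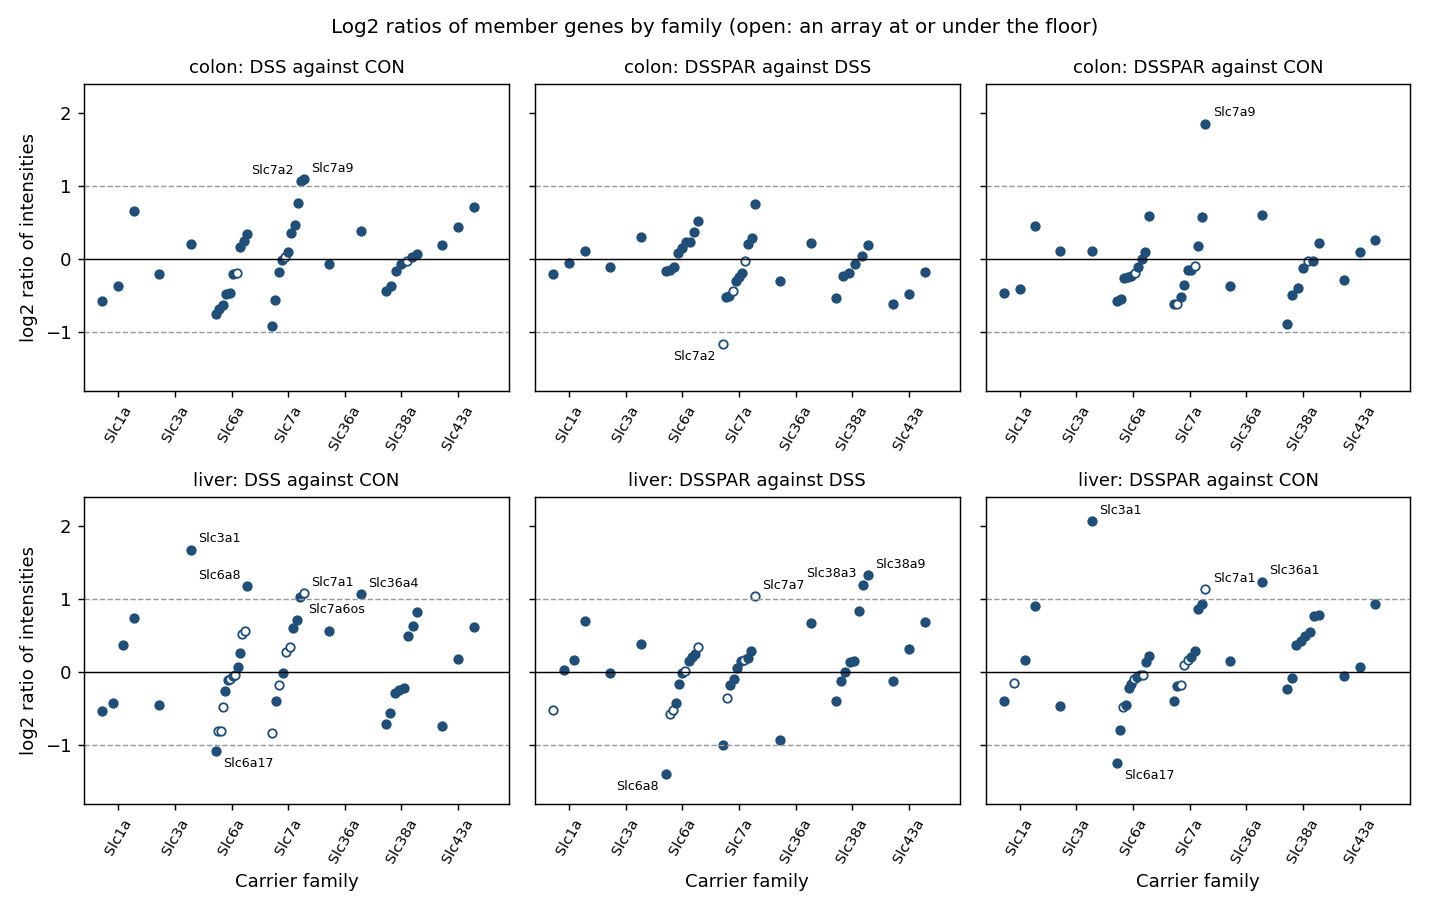
Log2 ratio of intensities (y axis) of each measured member gene, by carrier family (x axis), for 3 comparisons in colon (top) and in liver (bottom). Filled points have both arrays above the floor, open points are bounds, dashed lines mark 2-fold, and members past it are named: Slc3a1 in liver lies highest, at 1.68 and 2.07 against CON.

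Slc3a1 encodes the heavy chain of the cystine and dibasic amino acid exchanger of kidney and intestine, and Slc7a9 encodes its light chain. The pair takes up cystine, lysine, arginine and ornithine, and loss of either causes cystinuria. In liver Slc3a1 read 1606 in CON, 5130 in DSS and 6731 in DSSPAR. Both polymer arrays stood well above CON, 3.19-fold for DSS (log2 1.68) and 4.19-fold for DSSPAR (log2 2.07), and differed from each other by 0.39. In colon Slc3a1 read 152, 132 and 163, a spread of at most 0.30 between any 2 arrays. Slc7a9 did the reverse. In colon it read 186, 397 and 670, which is 2.14-fold higher in DSS than in CON (log2 1.10), 1.69-fold higher in DSSPAR than in DSS (0.76) and 3.61-fold higher in DSSPAR than in CON (1.85). In liver it stayed near the floor, at 89.6, 118 and 104. The heavy chain thus stood higher with the polymer in liver and the light chain in colon, while the partner of each differed by less than 2-fold or sat near the floor. Each gene has 1 probe set, so no second probe set bears on these values.

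The 150 bases before each start are shown because these 2 partner genes carry the largest differences in liver and in colon (RefSeq, GRCm38.p6, written along the gene, ending at the base before the start). They are chr17:85028197-85028346, plus strand, for Slc3a1 and chr7:35448942-35449091, plus strand, for the upstream of the Slc7a9 starts.
Slc3a1: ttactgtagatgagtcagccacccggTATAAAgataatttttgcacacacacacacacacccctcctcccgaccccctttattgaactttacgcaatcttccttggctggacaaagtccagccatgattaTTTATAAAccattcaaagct
Slc7a9: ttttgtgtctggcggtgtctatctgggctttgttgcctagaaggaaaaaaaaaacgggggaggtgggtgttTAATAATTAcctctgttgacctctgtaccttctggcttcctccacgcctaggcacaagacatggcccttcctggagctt
Capitals in Slc3a1 mark TATAAA on either strand, which begins 124, 20 and 18 bases before the start, the last 2 overlapping in opposite orientation. Capitals in Slc7a9 mark TAATNATTA, the inner 9 bases of the HNF1 motif, which begins 79 bases before the start. Both motifs were chosen after the sequences were seen. Searched on both strands of the 250 bases before the start, TATAAA occurs in 12.4% of 32851 promoters and in 6 of the 67 promoters of the 46 member genes that have one. TAATNATTA occurs in 0.588% of promoters and in 4 of those 67, which belong to Slc7a8, Slc7a9 and Slc7a15. The Slc7a9 promoters among the 4 overlap and hold the same site, so the 4 are not all distinct sites.

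**Figure D3:**
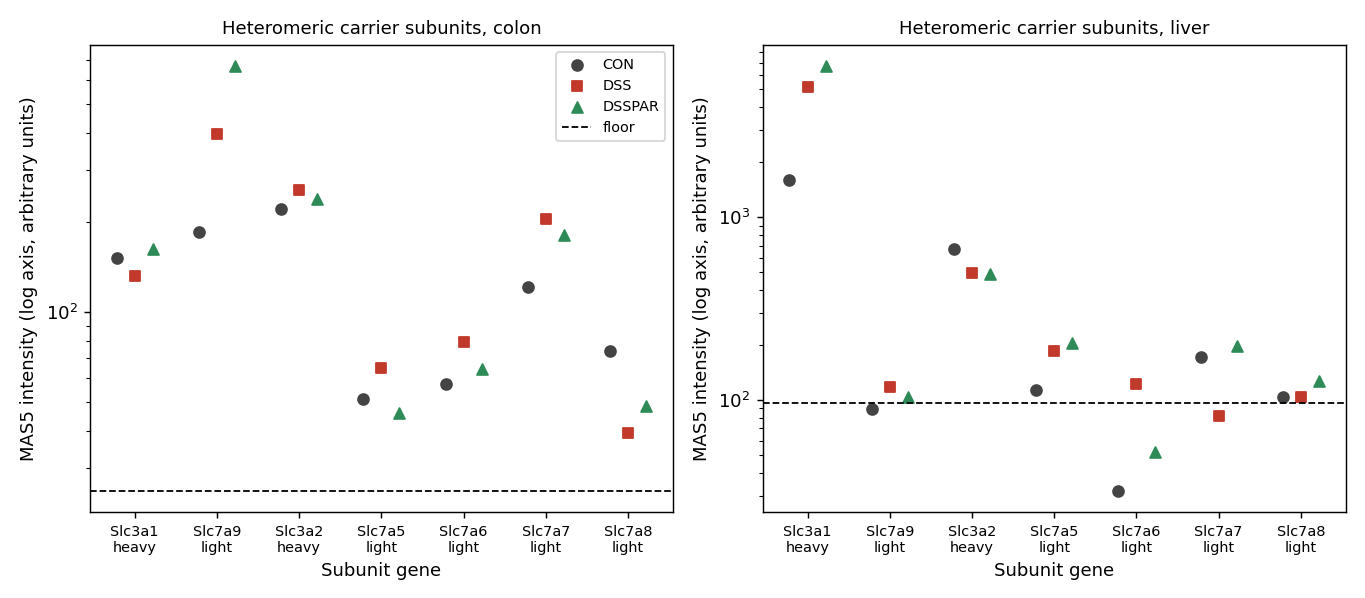
MAS5 intensity (log axis, arbitrary units) of the heavy chains Slc3a1 and Slc3a2 and their light chains in colon (left) and liver (right), 1 point per array (circle CON, square DSS, triangle DSSPAR), with the tissue's floor dashed. In liver both polymer points of Slc3a1 lie above CON while Slc7a9 stays near the floor, and in colon both of Slc7a9 do while Slc3a1 varies between 132 and 163.

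Slc3a2, the heavy chain also known as CD98, serves the light chains of the L, y+L and cystine-glutamate systems. It read 222, 257 and 240 in colon and 673, 493 and 488 in liver. The colon values lay within 0.21 of each other on the log2 scale, and in liver both polymer arrays were lower than CON, by -0.45 and -0.46. Among its light chains, Slc7a5 imports large neutral amino acids in exchange for glutamine. It read 51.1, 65.2 and 46.0 in colon and 113, 185 and 205 in liver, where DSS and DSSPAR exceeded CON by 0.71 and 0.86. Slc7a8, a light chain of broader range on the basolateral side of epithelia, read 74.2, 39.4 and 48.3 in colon. Its ratio of -0.91 for DSS against CON is the closest to 2-fold of the colon members just outside the threshold. In liver it lay at 104, 104 and 127, just above the floor.

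Slc7a7 encodes the basolateral light chain that exports cationic amino acids, also present in macrophages. In colon it read 121, 206 and 181, higher than CON by 0.77 in DSS and 0.58 in DSSPAR, and its second probe set read 72.9, 83.0 and 62.7, which puts DSS higher by 0.19 and DSSPAR lower by -0.22. The 2 probe sets therefore disagree on the side of DSSPAR. In liver it read 172, 82.0 and 198, with DSS under the floor, so DSSPAR was at least 2.05-fold higher than DSS, and the second probe set read 171, 44.6 and 125 with a bound of 0.38. Both liver probe sets had their lowest value in DSS. Markers of macrophages and monocytes, cells that carry Slc7a7, moved with the colon values: all 17 lay above the floor in DSS against 12 in CON, 13 of the 17 measured were 2-fold higher in DSS (median 1.71), and their summed intensity was 6388, 15390 and 14830. Among them were C1qa (169, 789 and 652) and Lyz2 (642, 2735 and 2345). Their part in the colon values of Slc7a7 was not tested. In whole tissue, fewer cells of a type and less RNA per cell cannot be told apart. In liver 7 of 15 of these markers were 2-fold higher in DSS, while Slc7a7 was lower there.

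Slc7a11 is the light chain that imports cystine in exchange for glutamate, and a known target of the amino acid and oxidative stress responses. It read 13.3, 25.5 and 22.9 in colon, above the floor in DSS alone, and 109, 93.4 and 38.9 in liver, above the floor in CON alone, so its ratios rest on the floor. Slc7a6, another CD98 partner, read 57.2, 79.5 and 64.7 in colon and lay above the liver floor in DSS alone (31.8, 123 and 51.9). The neighbouring opposite-strand gene Slc7a6os read 172, 353 and 330 in liver, 2.04-fold higher in DSS than in CON. The mean over its probe sets differed by 0.06, but its other probe set lay under the floor in every liver array (65.9, 35.0 and 42.9).

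The amino acid response element core TGATGNAA, a site type bound by ATF4, occurs on either strand in the 250 bases before the start in 3.45% of promoters and in 4 of 67 member promoters, which belong to Slc7a7, Slc7a11 and Slc6a21. The antioxidant response element core TGACNNNGC occurs in 10.2% of promoters and in 10 of 67 member promoters. The stretches of the 2 light chains are shown with the TGATGNAA core in capitals, in RefSeq GRCm38.p6 and along the gene, from chr14:54418045-54418104 and chr3:50443644-50443703, both on the minus strand.
Slc7a7: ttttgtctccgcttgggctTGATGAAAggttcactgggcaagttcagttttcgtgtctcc
Slc7a11: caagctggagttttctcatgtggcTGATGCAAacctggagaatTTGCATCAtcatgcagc
A second Slc7a7 core, not shown, begins 243 bases before another RefSeq start of that gene. The core shown begins 141 bases before the start in Slc7a7 and 66 and 47 bases before it in Slc7a11, the nearer of these on the opposite strand. Such a match is a run of letters and was not measured as a binding site here.

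Slc7a1, the widely expressed carrier of arginine, lysine and ornithine, read 59.4, 205 and 213 in liver. It was under the floor in CON and above it in both polymer arrays, at least 2.12-fold higher in DSS (bound 1.09) and at least 2.20-fold higher in DSSPAR (bound 1.14). A second liver probe set lay above the floor in DSS alone (39.7, 147 and 31.7). Another was under the floor in every liver array, with CON the highest (75.1, 24.8 and 28.0), so the higher DSSPAR value rests on the brightest probe set alone. In colon Slc7a1 read 281, 279 and 195, with DSSPAR lower than both others by about the same ratio, -0.51 and -0.52, and a second probe set gave 189, 202 and 130. For comparison, Slc3a1 was the other member at least 2-fold higher than CON in both liver polymer arrays. The 60 bases before a RefSeq start of Slc7a1 are shown, chr5:148392816-148392875 on the minus strand of GRCm38.p6. Capitals mark TATAAA, 28 bases before that start. Another RefSeq start of Slc7a1 had no TATAAA in the bases searched before it. The likeness to Slc3a1 therefore holds only for the start shown. It is not particular to Slc3a1 and Slc7a1, since TATAAA also occurs before starts of Slc1a3, Slc38a4, Slc43a1 and Slc7a15. In liver DSS and DSSPAR against CON, Slc38a4 gave -0.22 and -0.08 and Slc43a1 gave 0.61 and 0.93. Slc1a3 and Slc7a15 were under the floor there.
Slc7a1: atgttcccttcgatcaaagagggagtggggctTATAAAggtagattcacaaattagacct
Slc7a2 is the cationic carrier of hepatocytes and of activated macrophages. In liver it read 11760, 8979 and 10310, with ratios of -0.39, 0.20 and -0.19. Its 3 other liver probe sets gave DSS against CON ratios of 0.09, 0.10 and 0.73, so the side of CON on which DSS lies depends on the probe set. In colon it read 26.6, 55.8 and 22.2: DSS was 2.10-fold higher than CON and at least 2.23-fold higher than DSSPAR, which lay under the floor. The other 3 colon probe sets never passed the floor. Slc7a2 is also known from pancreas, and 12 of the 16 measured exocrine pancreas markers were 2-fold higher in the same colon array against CON (median 2.59) and 11 of 16 were lower in DSSPAR against DSS (median -2.57). Of 18 such markers on the array, 5, 16 and 6 were above the floor in CON, DSS and DSSPAR. Prss2 read 12.0, 581 and 14.3 and Cpb1 0.960, 370 and 8.42, so both were under the floor outside DSS. The summed intensity of the 18 was 16480, 15770 and 15340, most of it from Sycn, Cela1 and Zg16, which were high in every colon array. Macrophage markers were also higher in that array, as given above, and the part of either cell type in the Slc7a2 value was not tested. Slc7a4, a relative with no settled transport function, read 454, 688 and 346 in liver, -0.99 in DSSPAR against DSS and thus just short of 2-fold; it was chosen after its values were seen.

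The Slc1a family carries glutamate and aspartate or small neutral amino acids. Slc1a1, the epithelial glutamate carrier, lay above the floor in colon alone and read 153, 243 and 210. Its 3 probe sets were all higher in DSS than in CON, by 0.66, 0.39 and 1.09. Slc1a5, which exchanges glutamine and other neutral amino acids, read 261, 175 and 190 in colon, lower than CON by -0.57 in DSS and -0.46 in DSSPAR, and its second probe set was lower by -0.81 and -1.02. So the family's glutamate carrier and its neutral carrier stood on opposite sides of CON in the DSS colon on every probe set above the floor. Slc1a2, the glutamate carrier of perivenous hepatocytes and of astrocytes, read 1709, 1183 and 1921 in liver. The ratio of DSS to CON was -0.53, and 3 other probe sets gave -1.59, a bound of -1.77 and -0.01, so all lay below 0 but their sizes spread widely. DSSPAR exceeded DSS by 0.70, and by 1.41 and a bound of 0.79 on 2 of the others, while the last gave a bound of -0.65. Slc1a4, the carrier of alanine, serine and cysteine, read 143, 238 and 266 in liver and 57, 44.4 and 42.8 in colon. It was higher in both liver polymer arrays (0.73 and 0.90) and lower in both colon ones (-0.36 and -0.41).

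In the Slc6a family, 10 of 21 genes were measured in colon, and 7 of the 10 were lower in DSS than in CON, with a median of -0.33 and none past 2-fold. Under the 3 other scalings tried the median lay between -0.34 and -0.25. It was -0.08 over 5 genes with the floor at the 75th percentile, -0.42 over 21 with no floor and -0.48 over 7 with the probe sets of a gene averaged, so its size depends on the genes kept. Slc6a14, a sodium- and chloride-driven carrier of neutral and cationic amino acids found in distal gut, read 2970, 1931 and 2492 in colon, and its second probe set 1326, 904 and 945. Both probe sets were lower in DSS than in CON, by -0.62 and -0.55. Slc6a20a, the imino acid carrier, read 110, 68.6 and 75.9 (-0.69 and -0.54 against CON). Slc6a19, the brush border carrier of neutral amino acids in small intestine and kidney, read 25.6, 30.4 and 27.3, barely over the floor. Its partner Cltrn, also called collectrin, was under the floor in all 6 arrays. The serotonin carrier Slc6a4 read 105, 62.1 and 89.5, with DSS the lowest (-0.75 against CON); it was chosen after its values were seen. The taurine carrier Slc6a6, also chosen so, read 546, 397 and 368, while its second probe set read 251, 192 and 81.2. The second put DSSPAR below DSS by -1.24 and the first by -0.11, a gap of over 2-fold between probe sets of 1 gene.

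The creatine carrier Slc6a8 read 947, 1203 and 1421 in colon, and its second probe set 837, 962 and 1277, the same order on both. In liver it read 228, 516 and 197, and the second probe set 88.7, 202 and 140. DSS was the highest liver array on both, 2.26-fold above CON on the first (1.18) and by a bound of 1.06 on the second, where CON lay under the floor, and DSSPAR was below DSS by -1.39 on the first and -0.53 on the second. Slc6a17, a vesicular carrier of neutral amino acids best known from neurons, read 289, 137 and 122 in liver, lower than CON by -1.07 and -1.24. Its second liver probe set gave 163, 122 and 166, ratios of -0.42 and 0.02, so the lower value in DSSPAR was seen on 1 probe set only. Slc6a13, a hepatic carrier of GABA and taurine, read 3470, 2916 and 3379, all within 0.25 of each other. In liver the family's 14 measured genes had a median of -0.08 in DSS against CON, which centring the arrays on their medians turned to 0.06.

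Slc36a1 exports amino acids from lysosomes and takes up proline and glycine at the gut brush border. It was ordered alike in both tissues: 457, 595 and 696 in colon, 223, 329 and 525 in liver. In liver DSSPAR was 2.36-fold above CON (1.24) and 0.68 above DSS, and in colon 0.61 above CON. Slc36a4, a high-affinity carrier of proline and tryptophan, read 391, 823 and 435 in liver, so that DSS was 2.10-fold above CON (1.07) and DSSPAR lay near CON (0.15). In colon it read 90.8, 86.9 and 70.7. Each of these genes has 1 probe set.

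**Figure D4:**
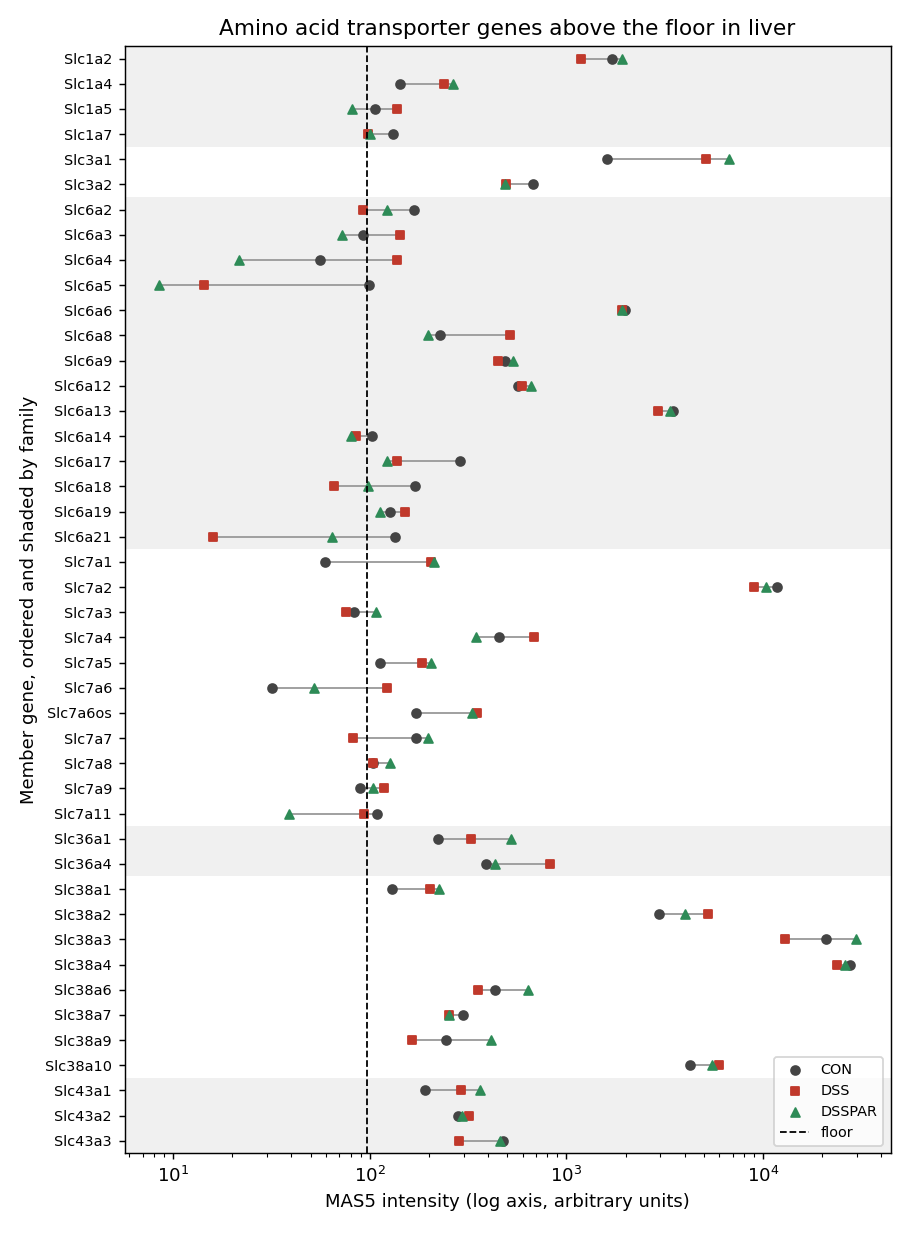
MAS5 intensity (log axis, arbitrary units) of the 44 member genes above the liver floor in at least 1 array, 1 point per array (circle CON, square DSS, triangle DSSPAR) with the floor of 96.6 dashed. Slc3a1, Slc7a1 and Slc36a1 have CON as their lowest point, and Slc38a3 has DSS as its lowest, at 12900 against 20990 and 29600.

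In the Slc38a family, Slc38a3 is the sodium-coupled glutamine carrier of hepatocytes, Slc38a2 and Slc38a4 import small neutral amino acids, and Slc38a9 senses arginine on the lysosome. Slc38a3 read 20990, 12900 and 29600 in liver, and its second probe set 473, 214 and 454. DSS was the lowest array on both: lower than CON by -0.70 and -1.14, and lower than DSSPAR, which stood 2.30-fold above it (1.20) on the first and 1.08 on the second. Slc38a2, the member known to respond to amino acid shortage, had DSS as its highest liver array, with 2965, 5257 and 3995, while its second probe set put DSSPAR highest (398, 461 and 530). Its ratio of 0.83 for DSS against CON stood at 0.21 and 0.27 on the other probe sets. Slc38a4, a carrier of differentiated hepatocytes, read 27600, 23660 and 26040, and 13800, 10160 and 16610 on its second probe set, with DSS the lowest on both. Slc38a1 read 130, 202 and 224 in liver, higher than CON by 0.63 and 0.79, against 410, 367 and 314 in colon, where its second probe set fell short of CON by more, -1.14 in DSSPAR; it was chosen after its values were seen. Slc38a9 read 244, 165 and 416 in liver, with DSSPAR 2.52-fold above DSS (1.33), but the mean over its 7 probe sets gave 0.45 and single ones ranged down to -0.24. In colon Slc38a2 read 912, 960 and 841, and none of the 7 measured colon members of the family passed 2-fold.

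Markers of perivenous hepatocytes, the zone of glutamine synthesis where Slc1a2 is known to be expressed, had a negative median in DSS against CON. Slc1a2 and Slc38a3 were also lower there. Of 10 such markers measured, 2 were 2-fold lower in DSS than in CON and none higher (median -0.49), and 3 were 2-fold higher in DSSPAR than in DSS and none lower (median 0.78). Their summed intensity was 191800, 183100 and 179000, and all 10 lay above the floor in each array. Without Cyp2e1, which is also in the hepatocyte list, the sum was 111600, 89640 and 112800, so Cyp2e1 went the other way, higher in DSS than in CON. Glutamine synthetase (Glul) read 13480, 8154 and 18690 and ornithine aminotransferase (Oat) 16280, 4719 and 11580. Markers of periportal hepatocytes had medians of -0.77 and 0.68 in the same comparisons, so the low DSS values were not limited to perivenous markers. General hepatocyte markers had medians of 0.30 and -0.30, so low DSS values were not shared by all hepatocyte markers. The part of hepatocyte zones in the values of Slc1a2 and Slc38a3 was not tested.

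**Figure D5:**
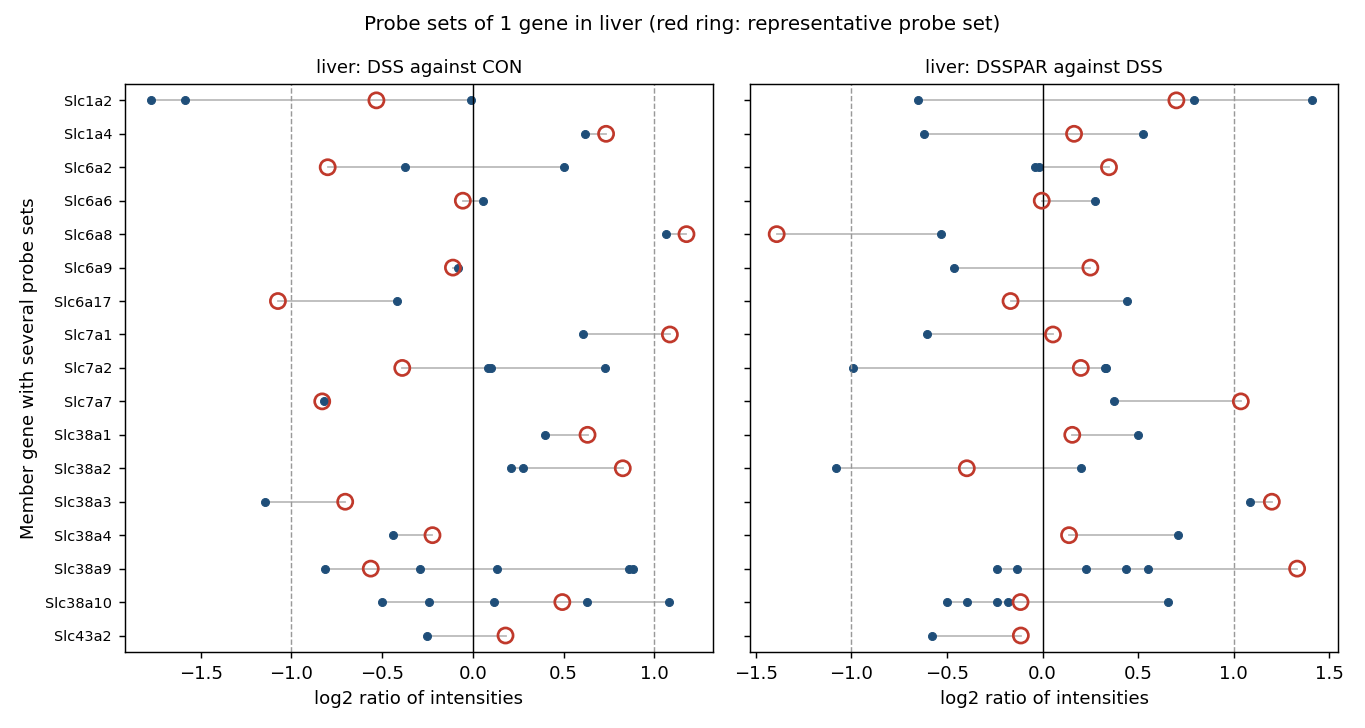
Log2 ratio of intensities (x axis) of every probe set measured in liver, for member genes with several (y axis), in DSS against CON (left) and DSSPAR against DSS (right). A red ring marks the probe set that stands for the gene and dashed lines mark 2-fold: both probe sets of Slc6a8 and Slc38a3 agree in side in both panels, whereas those of Slc38a9 spread from -0.24 to 1.33 on the right.

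In the Slc43a family, Slc43a1 and Slc43a2 move large neutral amino acids. Slc43a1 read 38.2, 43.6 and 31.4 in colon and 190, 291 and 362 in liver, where DSSPAR was above CON by 0.93. Slc43a2 read 52.6, 71.5 and 63.4 in colon and 281, 318 and 294 in liver. Slc43a3, now known as a nucleobase carrier, read 54.1, 88.5 and 57.8 in colon and 477, 286 and 461 in liver, so DSS was the highest array in colon (0.71 against CON) and the lowest in liver (-0.74). All 3 genes were higher in the DSS colon than in CON, with a median of 0.44. Markers of endothelial cells moved with them: 6 of 12 measured were 2-fold higher in DSS than in CON (median 0.95), 3 were 2-fold lower in DSSPAR than in DSS (median -0.64), and 11, 12 and 12 of 13 lay above the floor, with a summed intensity of 646, 1372 and 798. Of 13 fibroblast and matrix markers, 5 were 2-fold higher in DSS than in CON (median 0.95) and 2 lower in DSSPAR than in DSS (median -0.57), with 12, 13 and 13 above the floor and a summed intensity of 8352, 14410 and 10990. The part of these cells in the Slc43a values was not tested.

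Genes that work with the carriers were taken as lists, and their counts stand beside the shares of all genes given above for each comparison. Amino acid shortage is known to act on several carriers through ATF4. Of 35 measured integrated stress response and ATF4 target genes in colon, 2 were 2-fold higher in DSS than in CON and 1 lower, against 5.18% and 1.97% of all genes, with a median of 0.24 against 0.04 for all genes. The counts lie near those shares. The transcription factor Cebpb read 134, 450 and 235 and the serine synthesis enzyme Psat1 48.8, 156 and 100. The alanine aminotransferase Gpt2 read 226, 103 and 141. In liver 4 of 37 were 2-fold higher and 2 lower in DSS than in CON, against 4.73% and 4.2% of all genes, with a median of 0.05 against -0.02. Asparagine synthetase (Asns) read 313, 710 and 813, the same order as Slc3a1, Slc7a1 and Slc7a5, and the proline synthesis enzyme Aldh18a1 read 90.0, 234 and 260. The kinase-like factor Trib3 read 353, 284 and 137, the opposite order. Of 32 amino acid sensing and mTORC1 genes, none passed 2-fold in colon in any comparison, and in liver 2 were lower in DSS than in CON (Tsc2, -1.17, and Depdc5, a bound of -1.13) with a median of -0.17.

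Of the other carriers of amino acids and peptides, outside the 7 families, 13 were measured in colon. In DSS against CON, the lysosomal histidine and peptide carrier Slc15a3 was at least 2.90-fold higher (12.9, 72.8 and 35.4), and 2 other lysosomal carriers were lower: Ctns for cystine (76.0, 35.4 and 46.1) and Slc17a5 for sialic acid (224, 111 and 94.5). In liver Slc15a3 was 2.30-fold higher (168, 387 and 359) and Ctns 2.26-fold lower (275, 122 and 228). The aromatic amino acid carrier Slc16a10 read 556, 825 and 1273 in liver, the same order as Slc36a1. Among 11 measured carrier partners and brush border peptidases in colon, 3 were 2-fold lower in DSS than in CON: Naaladl1 (191, 2.43 and 1.55, at least 7.63-fold), Mep1a (1208, 313 and 420) and Dpep1 (823, 266 and 377). Another 2 were higher, Ggt5 (48.2, 217 and 80.4) and Lap3 (261, 556 and 493), of which Lap3 was chosen after its values were seen. The absorptive colonocyte markers had a median of -0.33 in the same comparison, with 5 of 17 lower, and a summed intensity of 39630, 31400 and 34220. Slc6a14 and Slc6a20a were lower with them, and the part of these cells in those values was not tested.

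Among arginine and polyamine genes, 1 of 11 was 2-fold higher in the DSS colon, spermidine synthase (Srm: 128, 262 and 163), while in liver 2 of 14 were lower, Oat and Ass1 (408, 177 and 256). Among glutamine and glutamate genes in liver, 2 of 11 were higher and 2 lower in DSS than in CON (median -0.43), against 4.73% and 4.2% of all genes. In DSSPAR against DSS 3 were higher and none lower (median 0.60), against 2.8% and 4.23% of all genes. Cytosolic aspartate aminotransferase (Got1) read 4428, 1123 and 4513, and the glutathione synthesis enzyme Gclc 7090, 3283 and 6107. These had their lowest value in DSS, as did Slc38a3, Slc38a4 and Slc1a2. The 2 genes of the list that were higher in DSS than in CON were Asns and Aldh18a1, whose values are given above. In colon none of the 11 was 2-fold higher and 1 was lower, Gpt (173, 78.6 and 103).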

How the data were processed

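RNA of colon and liver was measured on 6 arrays, 1 per tissue and group, each of RNA pooled from 7 mice, per the labels' protocols. The authors deposited an intensity for each probe set, made with MAS5 per the submitters' processing notes, with version and scaling target not given in the sources used here. The tissues were analysed apart, and whether they were also scaled apart is not stated there. Gene symbols came from the platform annotation, leaving out 932 probe sets with several symbols and 9211 that it does not list, and all 63 member genes were found in the RefSeq table under the same symbol.

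Ratios used a floor at the 50th percentile of a tissue's intensities, the brightest probe set per gene by mean log2 intensity, and a 2-fold threshold, applied to all genes. No test was run, since each group has 1 array. Members named with values were those past 2-fold, the member of highest mean intensity in each family, and a list of 19 carriers. Slc1a4, Slc6a4, Slc6a6, Slc7a4, Slc7a6 and Slc38a1 were chosen after their values were seen. Of each gene list, up to 4 members of largest ratio were named, and Lap3, Cltrn, Sycn, Cela1 and Zg16 were named after their values were seen. The members and lists were chosen with earlier results of these data known.

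Alternatives were a 3-fold threshold, 3 other scalings, no floor or one at the 75th percentile, averaging the probe sets of a gene, and dropping those whose identifier marks them as shared between transcripts. Leaving out the opposite-strand genes was added after the data were seen. The procedure was also run on simulated data, with settings not given here. How reliable the calls near 2-fold or near the floor are was not tested. Sequences come from RefSeq promoters (GRCm38.p6, 250 bases before to 50 after the start), which held 46 of 63 member genes. Analyses used Python 3.11.15, pandas 2.3.3, SciPy 1.17.1, matplotlib 3.10.9 and NumPy 2.4.6. The number of arrays limits the precision.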

Additional observations from a re-analysis of the deposited data

Results flagged for a closer look

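For 9 pairs of gene and comparison, a member at least 2-fold apart in one tissue lay on the other side of 0 in the other tissue. With 1 array per group these differences between tissues were not tested, and several of the smaller values lie within the disagreement between probe sets of 1 gene.

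In DSS against CON, Slc36a4 had a log2 ratio of -0.06 in colon and 1.07 in liver, and the heavy chain Slc3a1 had -0.20 in colon and 1.68 in liver. The cationic carrier Slc7a1 had -0.01 in colon and a bound of 1.09 in liver, and Slc7a2 had 1.07 in colon and -0.39 in liver.

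In DSSPAR against DSS, Slc38a9 had -0.53 in colon and 1.33 in liver, and the creatine carrier Slc6a8 had 0.24 in colon and -1.39 in liver. Slc7a2 had a bound of -1.15 in colon and 0.20 in liver, and the light chain Slc7a7 had -0.19 in colon and a bound of 1.04 in liver. In DSSPAR against CON, Slc7a1 had -0.52 in colon and a bound of 1.14 in liver.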

How the results depend on the processing

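Counts of member genes past 2-fold are small, so single genes move them. Counts are given as higher and lower, first for DSS against CON, next for DSSPAR against DSS, last for DSSPAR against CON. With no floor, colon had 6 and 7, 5 and 8, 4 and 8, and liver 10 and 15, 11 and 10, 5 and 14, since genes near background then count. With the floor at the 75th percentile, 18 members were above it in colon and 19 in liver, and the counts were 1 and 0, 0 and 0, 1 and 0 in colon and 2 and 0, 1 and 0, 1 and 0 in liver. With a 3-fold threshold they were 0 and 0, 0 and 0, 1 and 0 in colon (Slc7a9) and 1 and 0, 0 and 0, 1 and 0 in liver (Slc3a1). With the probe sets of a gene averaged they were 1 and 0, 0 and 0, 1 and 0 in colon and 3 and 1, 1 and 0, 2 and 1 in liver. Centring the arrays on their own medians gave 5 and 0, 4 and 1, 9 and 0 in liver. Quantile normalization gave 2 lower in DSSPAR against DSS and 5 higher in DSSPAR against CON in liver, and leaving out probe sets of shared type gave 1 lower in DSSPAR against CON in colon.

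Slc7a9 in colon and Slc3a1 in liver stayed past 2-fold against CON under all 7 alternatives with that threshold, with ranges of 1.06 to 1.18 and 1.79 to 2.13 for Slc7a9 and 1.65 to 1.82 and 2.05 to 2.37 for Slc3a1. Slc36a4 (DSS against CON) and Slc38a3 (DSSPAR against DSS) in liver did so too. Slc7a9, Slc3a1 and Slc36a4 have 1 probe set each, not of shared type and above the floor in all 3 arrays of that tissue. Averaging or dropping probe sets, or removing the floor, could therefore not move them. Only the 3 other scalings and the higher floor could. With the floor at the 75th percentile Slc6a8 in liver went to 0.49 and -0.49, Slc36a1 to 0.52 and Slc38a9 (DSSPAR against DSS) to 0.18. Centring the arrays on their own medians took Slc6a17 to -0.93 in both comparisons against CON. With the mean over probe sets Slc6a17 went to -0.63 in both comparisons against CON, Slc7a7 to 0.71, Slc38a9 to 0.45, Slc6a8 to -0.96 in DSSPAR against DSS and Slc7a6os to 0.06. No value called here changed its side of 0 under the settings tried. The cause of these moves was not tested, apart from the higher floor, which raises the dimmer array. The means for Slc7a6os and Slc6a17 take in a probe set that lay under the floor in every liver array.

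No paired analysis was possible because each group has 1 array and the labels carry no replicate numbers, and for the same reason arrays were not left out in turn. Signal near the floor limits Slc7a2 and Slc7a11 in colon and Slc7a1, Slc7a7 and Slc7a9 in liver.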
